A study of Mus musculus with 24 samples.

Results

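The 35 genes described here encode the contractile apparatus of skeletal muscle and the proteins that supply it with calcium and energy, and they were chosen by name as rows of the count table whose Ensembl identifiers carry these symbols in GENCODE M1. All 35 were found among the 37991 genes of the table. They were followed as a sign of muscle in dissected mammary tissue. RNA was measured in whole mammary glands or mammary tumors, not in sorted cells, of female mice. PyMT mice were heterozygous for MMTV-PyVT, in which the MMTV promoter drives the polyoma virus middle T antigen in mammary epithelium, and they were the offspring of PyMT males and FVB females. FVB females without the transgene were the age-matched controls. There were 3 mice of each genotype at week 6 (hyperplasia in PyMT), week 8 (adenoma/MIN), week 10 (early carcinoma) and week 12 (late carcinoma), which made 8 groups and 24 libraries. Total counts per library ran from 6969375 to 13516601, so that 3 counts stood for 0.222 to 0.430 CPM (counts scaled to library size). This is the most that a count of 0 allows where reads are counted singly, and a 0 allows more in libraries whose counts came in packets.

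The markers of the labelled tissue were present throughout. Summed luminal epithelial markers were at 2635 to 5207 CPM in PyMT and 341 to 2176 CPM in FVB, and summed adipocyte markers were at 303 to 3097 CPM in PyMT and 10941 to 25155 CPM in FVB. Counts came in packets of 8 to 25 in 6 PyMT and 7 FVB libraries, where a packet stood for 0.962 to 3.25 CPM, and levels of that size there can be a single packet. In bulk tissue, fewer muscle fibers and less RNA per fiber cannot be told apart.

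Skeletal muscle fibers contract when myosin of the thick filament pulls on actin of the thin filament within the sarcomere, under the control of calcium released from the sarcoplasmic reticulum. Fast and slow fibers carry different versions of myosin, troponin and the calcium pump. In the mouse, Myh4, Myh1 and Myh2 encode the fast heavy chains of type IIB, IIX and IIA fibers, and Myh7 encodes the slow chain of type I fibers, which it shares with the heart. Mammary fat pads lie between the skin and the muscles of the body wall.

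The level of the muscle genes differed by up to 1077-fold between mice of the same group, of which FVB at week 6 had the widest spread. Summed over the 35 genes, the 3 FVB libraries of week 6 held 148314, 47946 and 138 CPM, and the 3 of week 10 held 193, 179.6 and 144783 CPM. The 3 FVB libraries of week 8 held 372, 181 and 621 CPM, and the 3 of week 12 held 97092, 4065 and 583 CPM. Thus 3 FVB libraries, week 6 replicate 1, week 10 replicate 3 and week 12 replicate 1, devoted 14.8%, 14.5% and 9.71% of their counts to these genes, while other mice of the same ages stayed at 0.0138% to 0.407%, except for 4.79% in week 6 replicate 2.

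The PyMT libraries spanned a narrower range at a lower top level. They held 14149, 8459 and 1656 CPM at week 6, 73.6, 48.9 and 82.2 CPM at week 8, 177, 53.6 and 14027 CPM at week 10 and 143, 383 and 476 CPM at week 12. Their highest share was 1.41%, in week 6 replicate 1, and week 10 replicate 3 came next at 1.40%. The median over 12 libraries was 280 CPM in PyMT and 602 CPM in FVB, and the highest PyMT library stood 289-fold above the lowest. All 3 PyMT glands of week 6 carried more than any PyMT library of weeks 8 and 12. The groups overlapped at weeks 6 and 10 and were apart at weeks 8 and 12, when the highest PyMT sum was 82.2 and 476 CPM and the lowest FVB sum was 181 and 583 CPM.

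**Figure D1:**
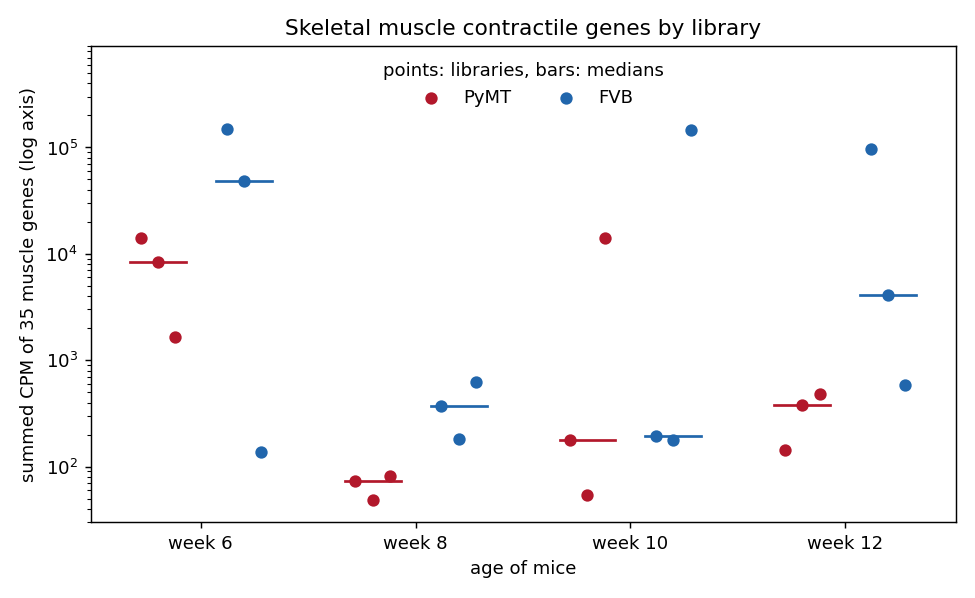
Summed CPM (log axis) of the 35 muscle genes in each library by week, PyMT in red and FVB in blue, with bars at the medians of 3. Single FVB libraries of weeks 6, 10 and 12 lie at 97092 to 148314 CPM, while the rest of the same groups run from 138 to 47946 CPM. The genotypes overlap at weeks 6 and 10 but not at weeks 8 and 12.

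Markers of other tissues were measured beside these sums. Summed skin markers, led by Krt1, Krt10 and Flg, were at a median of 0.679 CPM in PyMT and 1.86 CPM in FVB, and reached 357 CPM in the PyMT library of week 12 replicate 2 and 207 CPM in the FVB library of week 6 replicate 1. Heart markers, led by Gja5, Tnni3 and Ryr2, summed to 1.53 to 16.0 CPM in PyMT and 12.6 to 29.4 CPM in FVB. Nppa, Nppb and Myl7 of this list were at 0 in every library. Markers of smooth muscle and myoepithelium, led by Acta2, Myh11 and Smtn, summed to 321 to 938 CPM in PyMT and 900 to 2088 CPM in FVB. Their part in the levels of the 35 genes was not tested.

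Acta1, skeletal muscle actin and the core of the thin filament, was the highest of the 35 genes per length in the libraries richest in muscle. In the FVB library of week 6 replicate 1 it stood at 6171 RPKM (CPM per kilobase of exon), ahead of Ckm at 3471 RPKM, Myh4 at 3323 RPKM, Atp2a1 at 2035 RPKM and Tnnt3 at 1992 RPKM. In CPM, Acta1 was at 8924, 2636 and 5.19 in the FVB libraries of week 6, at 12.0, 5.80 and 63.4 at week 8, at 7.38, 13.3 and 8514 at week 10 and at 5842, 241 and 32.8 at week 12. In PyMT it was at 678, 474 and 110.3 CPM at week 6, at 1.14, 0.848 and 1.52 CPM at week 8, at 7.62, 0 and 791 CPM at week 10 and at 11.1, 13.7 and 31.9 CPM at week 12. The genotypes overlapped at weeks 6 and 10 and were apart at weeks 8 and 12, where the lowest FVB library was at 5.80 and 32.8 CPM and the highest PyMT library at 1.52 and 31.9 CPM. Neb, which encodes nebulin, the ruler of thin filament length, was at 2.28, 0.969 and 3.99 CPM in the PyMT libraries and 11.9, 14.7 and 46.8 CPM in the FVB libraries of week 8. At week 12 it was at 8.29, 23.2 and 24.2 CPM and 5168, 320.0 and 33.8 CPM, and the groups were apart at both ages.

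To show the sequence in front of the 2 genes highest per length, the 250 bases before the start of Acta1 and Ckm are given from RefSeq (GRCm38.p6, chr8:123894776-123895025, minus strand, and chr7:19410844-19411093, plus strand). Capitals mark the E-box CANNTG, the letters to which MyoD and related factors bind.
Acta1: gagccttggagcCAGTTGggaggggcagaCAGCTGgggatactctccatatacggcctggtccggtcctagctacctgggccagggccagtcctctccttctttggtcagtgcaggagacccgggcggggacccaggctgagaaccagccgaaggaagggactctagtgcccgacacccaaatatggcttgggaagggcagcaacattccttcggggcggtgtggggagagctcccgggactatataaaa
Ckm: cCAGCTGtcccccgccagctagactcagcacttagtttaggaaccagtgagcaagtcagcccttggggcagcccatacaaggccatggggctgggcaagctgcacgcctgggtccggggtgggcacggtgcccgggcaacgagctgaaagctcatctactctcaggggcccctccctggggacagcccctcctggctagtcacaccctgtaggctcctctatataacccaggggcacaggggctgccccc
Of the 35 genes, 27 had a promoter in the RefSeq table, and Actn3, Trdn, Myot, Tnni2, Neb, Myoz1, Tnnt3 and Tcap had none. The E-box stood in the 250 bases of 23 of the 27 genes (85.2%) and of 66.0% of all 27025 promoters. CATTCC or its reverse complement, the MCAT element, stood in 9 (33.3%) and in 12.6% of all promoters. The CArG box stood in 4 (Acta1, Fhl1, Myh4 and Myl3; 14.8%) and in 1.40% of all, and the MEF2 site in Ttn (3.70%) and in 0.518% of all. TATAAA or its reverse complement was found in 6 (22.2%) and in 13.0% of all. Both strands were searched, the motifs may overlap, and a match is a description of letters and not of a bound site.

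The troponins, which hold the thin filament shut until calcium arrives, were those of fast fibers. Tnnt3, the fast troponin T, ran from 0 through a median of 2.82 to 223 CPM in PyMT and from 0 through a median of 7.36 to 3218 CPM in FVB. Tnni2, the fast troponin I, ran from 0 through a median of 3.67 to 127 CPM in PyMT and from 0 through a median of 4.24 to 1536 CPM in FVB. Tnnc2, the fast troponin C, ran from 0 through a median of 1.67 to 119 CPM in PyMT and from 0 through a median of 3.96 to 1206 CPM in FVB. Each was highest in the same FVB libraries as Acta1, and over the 12 libraries each the genotypes overlapped for all 3. In the gene models, 592 of the 800 exon bases of Tnnc2 lie opposite exons of Ube2c, and how the counting used strand is not given in the sources used here.

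The slow troponins stood above 4 CPM in 1 mouse only. Tnnt1, the slow troponin T, was at 31.6, 0 and 0.112 CPM in the FVB libraries of week 12, and in the other 21 libraries it ran from 0 to 3.48 CPM. The 3.48 CPM belonged to the PyMT library of week 12 replicate 1 and were 26 counts in a library with packets of 12. Tnni1, the slow troponin I, was at 15.3, 2.44 and 0 CPM in the FVB libraries of week 12 and ran from 0 to 0.798 CPM elsewhere. Tnnc1, the troponin C of slow fibers and heart, had 3 counts in all, in the FVB library of week 12 replicate 3, but 1041 of its 1051 exon bases are also those of a second gene model on the same strand, which had 0 counts, so that its level cannot be read from this table.

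The thick filament was that of fast fibers as well, with Myh4 in front. Myh4, the type IIB heavy chain, was at 20064, 6729.8 and 2.18 CPM in the FVB libraries of week 6, at 29.6, 4.99 and 15.4 CPM at week 8, at 6.29, 1.75 and 19846 CPM at week 10 and at 11177, 17.9 and 13.3 CPM at week 12. In the PyMT libraries it was at 1947, 1097 and 226 CPM at week 6, at 4.68, 2.42 and 3.59 CPM at week 8, at 11.6, 0 and 1425 CPM at week 10 and at 15.5, 0.142 and 60.2 CPM at week 12. It separated the genotypes at week 8 alone, and at week 12 the PyMT library of replicate 3, at 60.2 CPM, lay above 2 of the 3 FVB libraries. Myh1, the type IIX chain, ran from 0 through a median of 5.25 to 383 CPM in PyMT and from 0.312 through a median of 22.4 to 2775 CPM in FVB. Myh2, the type IIA chain, ran from 0 through a median of 1.40 to 124 CPM in PyMT and from 0 through a median of 12.2 to 894 CPM in FVB. The 3 genes are near-identical paralogs, and the division of reads among them is uncertain.

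Myh2, Myh1 and Myh4 lie in this order within chr11:66984529-67073948 (mm9, plus strand). The 250 bases before each start are shown because the 3 genes were high in the same FVB libraries, and capitals mark the 1 run of 10 or more bases that all 3 share. The start of Myh7, the slow chain, is shown for comparison and does not hold that run. The windows are chr11:67237562-67237811 for Myh4, chr11:67199852-67200101 for Myh1 and chr11:67170777-67171026 for Myh2 on the plus strand, and chr14:54994627-54994876 on the minus strand for Myh7 (RefSeq, GRCm38.p6).
Myh4: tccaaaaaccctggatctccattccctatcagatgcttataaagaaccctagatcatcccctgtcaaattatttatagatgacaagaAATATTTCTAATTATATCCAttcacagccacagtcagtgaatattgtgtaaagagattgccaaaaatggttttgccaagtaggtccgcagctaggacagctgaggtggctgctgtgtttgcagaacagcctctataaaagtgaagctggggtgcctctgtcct
Myh1: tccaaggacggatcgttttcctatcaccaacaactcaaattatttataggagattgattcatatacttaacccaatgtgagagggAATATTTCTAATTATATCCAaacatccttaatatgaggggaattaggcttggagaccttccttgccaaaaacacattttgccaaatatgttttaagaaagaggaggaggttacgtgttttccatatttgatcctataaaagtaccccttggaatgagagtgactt
Myh2: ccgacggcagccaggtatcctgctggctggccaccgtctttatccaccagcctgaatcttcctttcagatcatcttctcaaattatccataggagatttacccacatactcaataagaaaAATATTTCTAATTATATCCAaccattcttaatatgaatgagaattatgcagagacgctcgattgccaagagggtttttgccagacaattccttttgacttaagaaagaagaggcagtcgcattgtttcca
Myh7: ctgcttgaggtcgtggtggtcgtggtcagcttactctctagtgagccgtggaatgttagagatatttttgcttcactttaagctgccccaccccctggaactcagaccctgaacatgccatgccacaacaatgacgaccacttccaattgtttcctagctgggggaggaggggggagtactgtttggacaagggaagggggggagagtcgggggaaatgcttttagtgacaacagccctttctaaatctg
The shared run is 20 bases long and starts 163 bases before the start of Myh4, 165 bases before that of Myh1 and 130 bases before that of Myh2. Of 27025 promoters of the same length, searched on both strands, these 3 alone held it.

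Set per length, the 4 heavy chain genes were divided in much the same way in most libraries that had muscle. In 9 libraries the 35 genes had at least 10000 counts. Myh4 made up 75.3% to 90.0% of the signal of these 4 heavy chain genes in 8 of the libraries, Myh1 7.70% to 19.2% and Myh2 0.897% to 5.55%. The FVB library of week 12 replicate 2 was the exception, with 66.3% Myh1, 18.1% Myh2 and 15.6% Myh4 among these 4 genes. Myh8, a further heavy chain gene outside the 35 (see the end), was higher in CPM there than each of the 4. The same held in the FVB library of week 8 replicate 3. Among the libraries with fewer muscle counts but at least 100 heavy chain counts, Myh1 also led in the PyMT library of week 12 replicate 2, at 92.7% against 0.522% for Myh4, on 187 counts of Myh1 and 1 of Myh4. It led in the FVB library of week 12 replicate 3 too, at 52.0% against 23.0%.

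**Figure D2:**
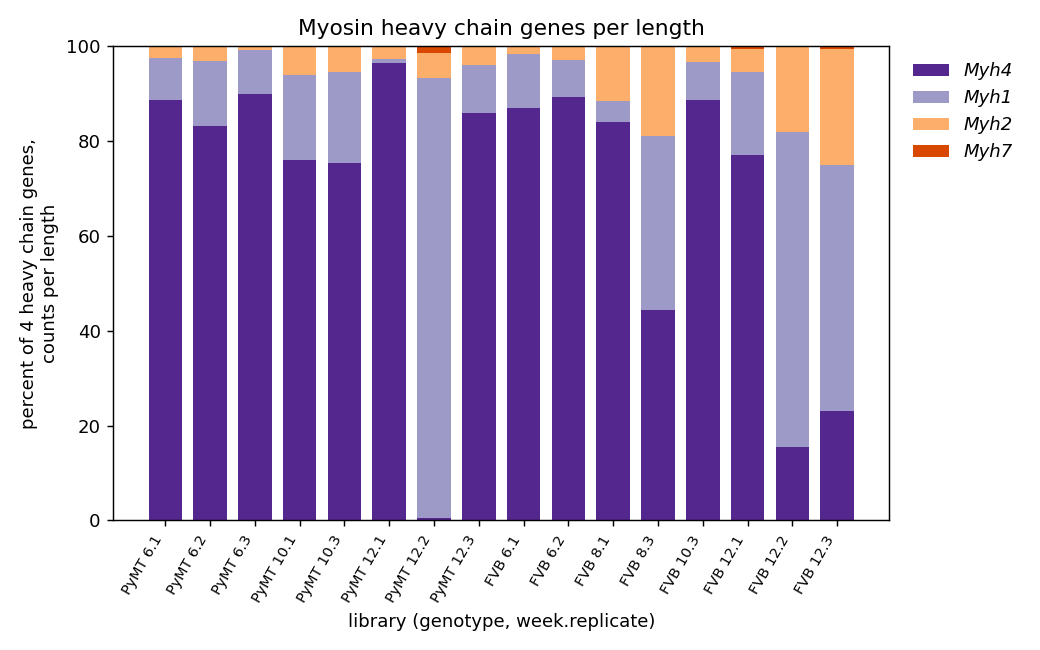
Stacked bars give the percent of the 4 heavy chain genes, as counts per length, in the 16 libraries with at least 100 heavy chain counts. Myh8 is not among the 4. Myh4 (dark purple) leads in most libraries, and Myh1 (light purple) leads in the FVB libraries of week 12 replicates 2 and 3 and the PyMT library of week 12 replicate 2.

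The slow heavy chain passed 1 CPM in 1 library. Myh7 was at 154, 0 and 0.450 CPM in the FVB libraries of week 12 and at 0 to 0.569 CPM in the other 21. Myl2, the slow regulatory light chain, was at 23.8, 0 and 0.337 CPM in the FVB libraries of week 12 and at 0 in every other library. Myl3, the slow essential light chain, behaved otherwise, at 10.6, 34.9 and 0.450 CPM in the same 3 libraries, so that it was highest in replicate 2, in which Myh7, Myl2 and Tnnt1 were at 0. The 6 slow genes made up 0.887% of the counts of the 13 fast and 6 slow genes in the FVB library of week 12 replicate 1 (95% exact binomial interval 0.848% to 0.927%) and 7.45% in replicate 2 (6.60% to 8.38%), where 243 of the 260 slow counts were of Myl3. In the other 7 libraries with at least 10000 muscle counts, the slow share was 0% to 0.0170%. These intervals cover counting error only.

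The fast light chains went with the fast heavy chains. Mylpf, the fast regulatory light chain, was at 1632, 507 and 1.25 CPM in the FVB libraries of week 6, 2.00, 0.270 and 6.78 CPM at week 8, 0.419, 0 and 1366 CPM at week 10 and 865, 41.0 and 4.16 CPM at week 12. In PyMT it was at 126, 114 and 18.7 CPM at week 6, 0.126, 0.121 and 0.878 CPM at week 8, 2.06, 0 and 110.1 CPM at week 10 and 0.134, 0.996 and 5.55 CPM at week 12. The genotypes overlapped at every age. Myl1, the fast essential light chain, kept 3.24 to 13.8 CPM in the FVB libraries that had least muscle. Ttn, the giant spring titin that runs along the thick filament, has 116828 bases of exon and took 48.4% to 59.3% of the counts of the 35 genes in the 9 libraries richest in muscle, although per length it ranked 10th of 35 in the FVB library of week 6 replicate 1, at 643 RPKM. Ttn was at 20.0, 23.4 and 21.4 CPM in the PyMT libraries and 98.2, 44.6 and 268 CPM in the FVB libraries of week 8. At week 12 it was at 55.5, 228 and 219 CPM and 49684, 2411 and 249 CPM, again without overlap.

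**Figure D3:**
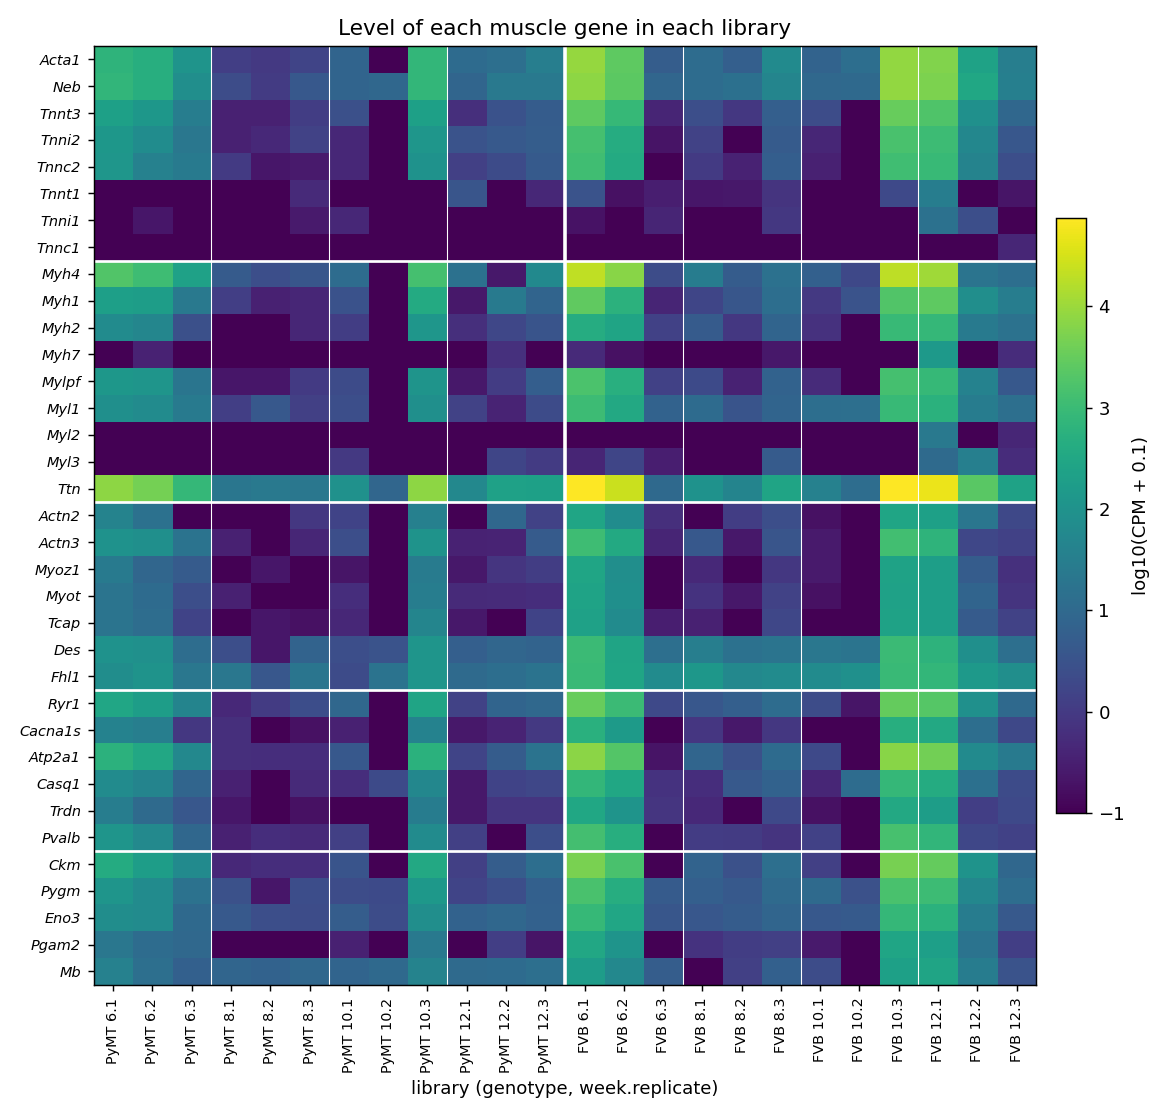
Heat map of log10(CPM + 0.1) of the 35 genes (rows, in blocks of thin filament, thick filament, Z-disc and scaffold, calcium handling and energy metabolism) in 24 libraries (columns, genotype and week.replicate). Most rows brighten in the same columns, and the slow genes other than Myl3 are at most 3.48 CPM outside the FVB library of week 12 replicate 1. Fhl1 and Eno3, and Mb in PyMT, keep some level where most others are dark. Ttn, with 116828 bases of exon, does so in CPM, which is not set per length. Des does so too, except in the PyMT library of week 8 replicate 2, at 0.121 CPM.

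The Z-disc, which anchors thin filaments and joins neighboring sarcomeres, was represented by 7 genes. Actn2 and Actn3, the alpha-actinins that cross-link actin there (Actn3 in fast fibers only), reached 285 and 1239 CPM. Myoz1, a fast-fiber partner of calcineurin, Myot, a partner of alpha-actinin, and Tcap, which ties titin to the Z-disc, reached 287, 259 and 246 CPM. All 5 peaked in the FVB library of week 6 replicate 1 or week 10 replicate 3, and fell to 0 in at least 1 library.

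Fhl1 did not fall so far, and neither did Des except in the PyMT library of week 8 replicate 2. There Des had 1 count in a library with packets of 23, which cannot be told from 0. Des, the intermediate filament desmin, which smooth muscle also makes, was at 1007, 277 and 13.8 CPM in the FVB libraries of week 6, 32.0, 15.4 and 18.2 CPM at week 8, 21.4, 18.0 and 1015 CPM at week 10 and 632, 85.1 and 14.0 CPM at week 12. In PyMT it was at 98.0, 89.2 and 12.6 CPM at week 6, 2.53, 0.121 and 7.27 CPM at week 8, 2.54, 3.06 and 114 CPM at week 10 and 6.01, 8.40 and 7.36 CPM at week 12. It was apart between the genotypes at weeks 8 and 12. Fhl1, a LIM-domain scaffold protein of the sarcomere that is also made outside muscle, was at 967, 284 and 69.2 CPM in the FVB libraries of week 6, 126, 56.7 and 68.5 CPM at week 8, 66.6, 88.3 and 947 CPM at week 10 and 779, 142 and 80.1 CPM at week 12. In PyMT it was at 74.8, 102 and 21.0 CPM at week 6, 21.1, 3.75 and 19.2 CPM at week 8, 2.06, 16.9 and 114 CPM at week 10 and 10.4, 13.5 and 17.3 CPM at week 12. Its lowest FVB library, at 56.7 CPM, lay above 9 of the 12 PyMT libraries, and the genotypes were apart at weeks 8 and 12.

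Calcium handling genes followed the filaments. Ryr1, the calcium release channel, ran from 0 through a median of 8.32 to 303 CPM in PyMT and from 0.117 through a median of 10.7 to 3306 CPM in FVB, and Cacna1s, the voltage sensor that opens it, reached 527 CPM. Atp2a1, the fast-fiber calcium pump SERCA1, was at 8.00, 2.83 and 11.2 CPM in the FVB libraries and 0.506, 0.484 and 0.479 CPM in the PyMT libraries of week 8, without overlap. At week 12 it was at 4321, 63.4 and 24.4 CPM in FVB and 1.47, 5.12 and 17.0 CPM in PyMT, again apart. Of the 3483 exon bases of Atp2a1, 763 lie opposite exons of Rabep2, which had 7869 counts in all libraries. The part of such reads in its level was not tested. Casq1, the calcium store of fast fibers, and Trdn, which tethers it to the release channel, reached 836 and 351 CPM. Pvalb, the calcium buffer that speeds relaxation of fast fibers, ran from 0 through a median of 1.21 to 115 CPM in PyMT and from 0 through a median of 1.25 to 1483 CPM in FVB.

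The enzymes of energy supply were high in the same libraries as the filaments. Ckm, muscle creatine kinase, was at 4911, 1506 and 0 CPM in the FVB libraries of week 6, 7.25, 2.83 and 14.0 CPM at week 8, 1.17, 0 and 4765 CPM at week 10 and 3101, 102 and 8.99 CPM at week 12. In PyMT it was at 415, 183 and 64.7 CPM at week 6, 0.379, 0.484 and 0.479 CPM at week 8, 3.26, 0 and 359 CPM at week 10 and 1.20, 5.41 and 13.2 CPM at week 12. The genotypes were apart at week 8 only, at most 0.484 CPM in PyMT and at least 2.83 CPM in FVB. Of the 1415 exon bases of Ckm, 451 lie opposite exons of A930016O22Rik, which had 183 counts in all libraries. Pygm, the glycogen phosphorylase of muscle, and the glycolytic enzymes Eno3 and Pgam2 reached 1583, 861 and 336 CPM, and Eno3 kept 2.22 to 9.11 CPM in the PyMT libraries of weeks 8 to 12 other than week 10 replicate 3.

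Mb, the oxygen store myoglobin, kept a level in PyMT libraries in which most other muscle genes were low. In the PyMT libraries it was at 8.22, 6.90 and 9.26 CPM at week 8, where Acta1 was at most 1.52 CPM, at 37.9, 13.9 and 6.14 CPM at week 6, at 7.86, 10.0 and 43.2 CPM at week 10 and at 10.6, 11.4 and 13.8 CPM at week 12. In the FVB libraries it was at 0, 1.21 and 6.25 CPM at week 8, at 176, 55.8 and 5.30 CPM at week 6, at 2.26, 0 and 219.5 CPM at week 10 and at 273, 29.3 and 3.03 CPM at week 12. Ttn, at 20.0 to 23.4 CPM, and Fhl1, at 3.75 to 21.1 CPM, also kept a level in the PyMT libraries of week 8. Mb was the 1 gene of the 35 that was higher without overlap in PyMT, at week 8, when 27.6% of all tested genes were so. At week 8 its log2 fold change was 1.54 with an SE of 1.32 (adjusted p = 0.50, edgeR's quasi-likelihood test), which was not called. Of its 1252 exon bases, 64 lie opposite exons of Apol6, which had 20848 counts in all libraries against 8426 for Mb, and the part of these reads in its level was not tested.

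**Figure D4:**
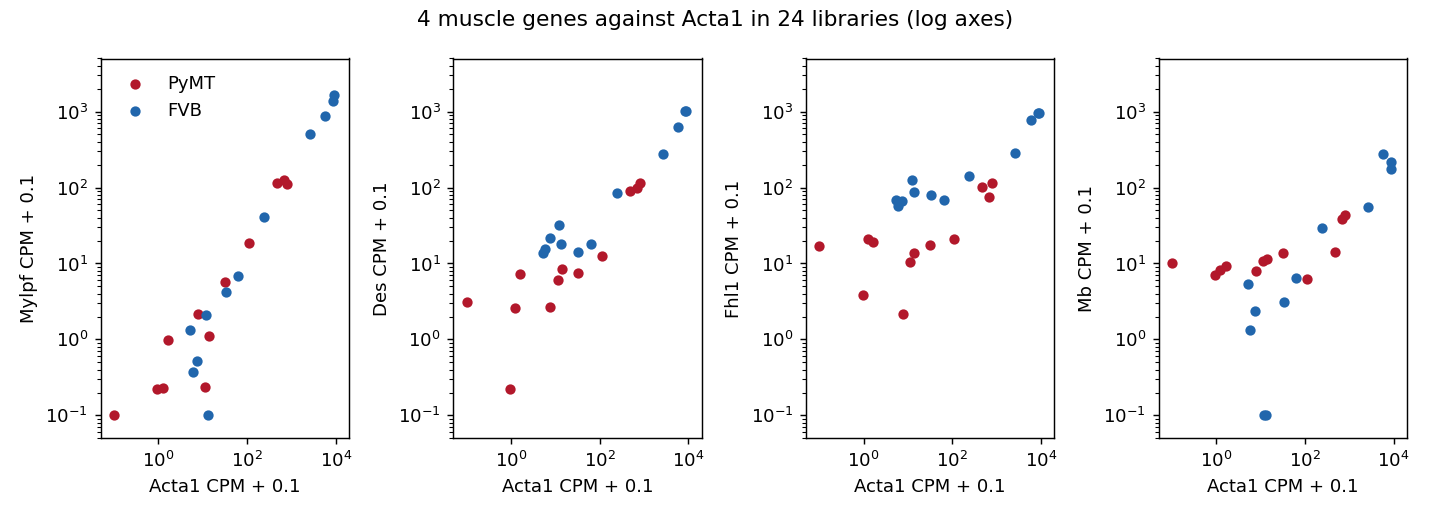
CPM + 0.1 of Mylpf, Des, Fhl1 and Mb against that of Acta1 in 24 libraries (log axes), PyMT in red and FVB in blue. Mylpf falls with Acta1 to 0, Des (except in 1 PyMT library, at 0.121 CPM) and Fhl1 level off, with the FVB libraries above the PyMT libraries, and Mb levels off near 10 CPM in PyMT but reaches 0 in 2 FVB libraries.

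The proportions of Acta1, Myh4 and Atp2a1 were alike in most libraries with enough counts to see them. In 8 of the 9 libraries with at least 10000 muscle counts, Acta1 took 4.79% to 6.66% of them, Myh4 10.2% to 14.0% and Atp2a1 3.40% to 4.78%, in PyMT and FVB alike. Among these 8, the PyMT library of week 6 replicate 3 differed for other genes. It had the lowest shares of the 9 for Actn2 (0%), Cacna1s (0.0492%) and Myh2 (0.161%), and the highest for Myl1 (1.55%) and Pgam2 (0.581%). The FVB library of week 12 replicate 2 again stood apart. Its Acta1 share was 5.93%, within the range of the others, but its shares of, among others, Myh4 (0.441%), Actn3 (0.0424%), Pvalb (0.0424%), Trdn (0.0282%) and Atp2a1 (1.56%) were below that range, and those of Myl3 (0.858%), Mb (0.720%), Fhl1 (3.50%) and Des (2.09%) were above it.

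The libraries also ranked alike from gene to gene. For 29 of the 35 genes (82.9%), the 4 highest FVB libraries were week 6 replicates 1 and 2, week 10 replicate 3 and week 12 replicate 1, which held for 57 of 80 other muscle genes with a count and for 1.49% of all tested genes. The 6 exceptions were the slow genes Myh7, Myl2, Myl3, Tnnt1, Tnni1 and Tnnc1. In PyMT, the same 4 libraries, the 3 of week 6 and week 10 replicate 3, were highest for 22 of the 35 (62.9%), for 20 of the 80 other muscle genes and for 0.422% of all tested genes.

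Differential expression between PyMT and FVB was tested at each week, over the 14918 genes that reached 1 CPM in 12 or more libraries. Of the 35 genes 25 passed this filter, and 19 of the 25 reached 1 CPM in more FVB than PyMT libraries, so that the counts over these 25 are no measure of all 35. Myoz1, Cacna1s, Myot, Trdn and the 6 slow genes did not pass. A gene was called with an adjusted p under 0.05 by edgeR's quasi-likelihood test and a fold change above 2. The replicates were separate mice.

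At week 6, when both genotypes held muscle, none of the 25 was called, where 6.46% of all tested genes were called lower in PyMT. The 2 of the 35 without overlap between the groups, Myl3 and Tnnt1, were both lower in PyMT, as were 13.8% of tested genes. Neither passed the filter, both were at 0 in the 3 PyMT libraries, and their lowest FVB libraries were at 0.208 and 0.0879 CPM. A count of 0 in these PyMT libraries allows at least 0.222 to 0.390 CPM, and more since all 3 had packets, so that counting error covers this gap. The median log2 fold change of the 25 was -3.54, against -0.08 over all genes. Of the 25, 5 had an unadjusted p under 0.05, DESeq2 called 1 and limma voom none. Acta1 had a log2 fold change of -3.70 (SE 1.76, adjusted p = 0.222) and Fhl1 of -3.23 (SE 1.02, adjusted p = 0.0792). The FVB library of replicate 3, with the least muscle of all FVB libraries, decided this count, since 22 of the 25 were called lower in PyMT without it.

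At week 8, when no library had more than 0.0621% of its counts in these genes, 6 of the 25 were called, all lower in PyMT, where 6.37% of all tested genes were called lower. They were Ttn with a log2 fold change of -2.89 (SE 0.58, adjusted p = 0.0198), Acta1 with -4.70 (SE 0.95, adjusted p = 0.0205), Neb with -3.52 (SE 0.74, adjusted p = 0.0236), Ckm with -4.35 (SE 0.99, adjusted p = 0.0299), Fhl1 with -2.79 (SE 0.65, adjusted p = 0.0337) and Atp2a1 with -4.12 (SE 0.98, adjusted p = 0.0352). The median over the 25 was -2.89, against -0.04 over all genes. Groups did not overlap for 16 of the 35. Of these 15 were lower in PyMT, a state that 15.6% of tested genes shared, and Mb was higher. Some gaps were wide, as for Acta1 (at most 1.52 CPM in PyMT, at least 5.80 CPM in FVB). Others were narrow, as for Pvalb (0.484 and 0.665 CPM) and Myh4 (4.68 and 4.99 CPM). A packet was 1.08 CPM in the FVB library that set the bound of Myh4. With all 24 libraries in the fit none was called, with DESeq2 12 and with limma voom 2. Without PyMT replicate 1, PyMT replicate 2, PyMT replicate 3 or FVB replicate 3 there were 0, 2, 1 and 1.

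At week 10 none of the 25 was called, where 9.09% of all tested genes were called lower in PyMT, none had an unadjusted p under 0.05, and DESeq2 and limma voom called none. The median log2 fold change was -4.07, against 0.01 over all genes, and it rested on 1 FVB library. Acta1 had a log2 fold change of -4.04 (SE 3.06, adjusted p = 0.433), which turned to 4.61 without the FVB library of replicate 3. With the replicate number as a block, 8 of the 25 were called, all lower in PyMT, and the median log2 fold change was -2.40. This pairing was inferred from correlations in the same counts (0.108 to 0.293) and not from the labels. Its strongest pair, that of replicate 3, joins the library of each genotype richest in these genes, so the 8 calls are not independent of them. No gene of the 35 was apart between the groups, where 14.2% of tested genes were apart and lower in PyMT.

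At week 12, 21 of the 25 were called, all lower in PyMT, where 13.0% of all tested genes were called lower. The median log2 fold change was -7.37, against -0.00046 over all genes. Fhl1 had -5.05 (SE 0.93, adjusted p = 0.00554), Myl1 -7.80 (SE 1.70, adjusted p = 0.0114), Myh2 -7.75 (SE 1.80, adjusted p = 0.0148), Des -5.54 (SE 1.30, adjusted p = 0.0153) and Acta1 -7.24 (SE 1.86, adjusted p = 0.0216). Myh4 (log2 fold change -7.70, adjusted p = 0.0790), Actn2, Actn3 and Mb were not called. Groups did not overlap for 16 of the 35, all lower in PyMT, as for 16.2% of tested genes. The count was 7 with DESeq2, 5 with all 24 libraries in the fit and 2 with limma voom. It was 2 without any 1 of the 3 PyMT libraries and 11 without the FVB library of replicate 1, without which Myh4 turned to a log2 fold change of 0.50.

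**Figure D5:**
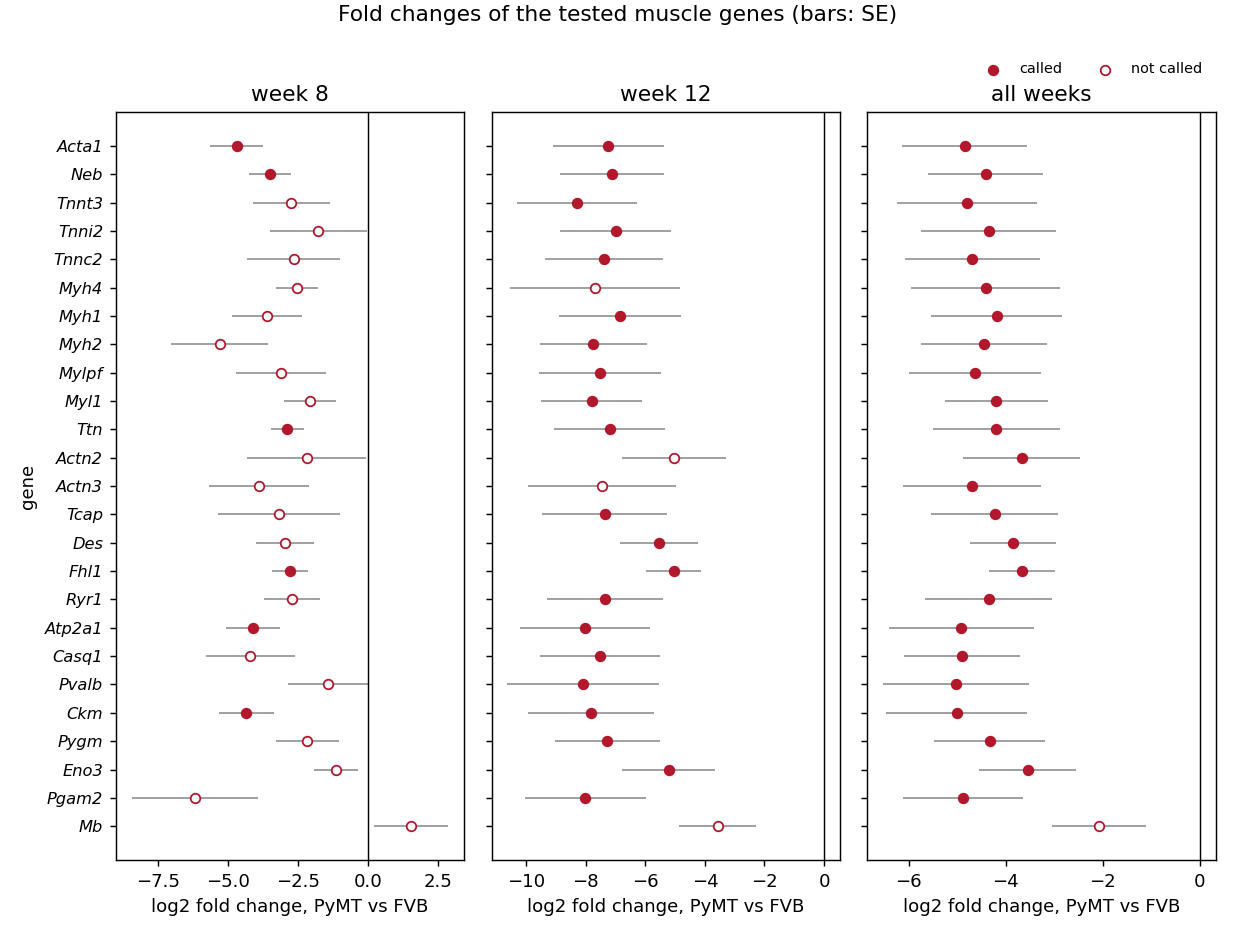
Log2 fold change (PyMT against FVB, edgeR, bars are SE) of the 25 tested muscle genes at week 8, week 12 and over all weeks, filled where the adjusted p was under 0.05 and the fold change above 2. All lie below 0 except Mb at week 8, and 6, 21 and 24 are filled.

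With week as a covariate and 12 libraries against 12, 24 of the 25 were called lower in PyMT, where 17.2% of all tested genes were, and Mb was not called. The median log2 fold change was -4.41, against -0.03 over all genes. Fhl1 led with -3.66 (SE 0.67, adjusted p = 7.22e-05), followed by Des with -3.85 (SE 0.89, adjusted p = 0.000857) and Casq1 with -4.90 (SE 1.19, adjusted p = 0.00133). For none of the 35 did the 12 PyMT libraries stay clear of the 12 FVB libraries, as they did, lower in PyMT, for 4.68% of tested genes. Limma voom, which fits log values, called 1, and the median log2 fold change was then -1.30. The count was 8 without the FVB library of week 10 replicate 3, and it was 1 without the 13 libraries that had packets, where all 25 stayed below 0 with a median of -6.61.

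No change with age was called for these genes. The PyMT against FVB difference did not pass the test for a change from week 8 to week 10 or from week 6 to week 12 for any of the 25, with none at an unadjusted p under 0.05, and none with DESeq2 or limma voom. Over all genes 0.0067% and 0.0% were called. Among the 4 weeks within FVB none of the 25 and 0.0% of all genes were called, none had an unadjusted p under 0.05, and neither DESeq2 nor limma voom called any. Among the 4 weeks within PyMT none was called, where 0.0134% of all genes were, although 22 had an unadjusted p under 0.05. DESeq2 called 3 and limma voom none, and without the PyMT library of week 10 replicate 3 the count was 20.

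Genes of the wider muscle list and of the myogenic program were examined beside these. Of 83 other muscle genes, 81 were in the table and 45 were tested, and 4 (8.89%) were called lower in PyMT at week 6, 3 (6.67%) at week 8 and 3 (6.67%) at week 10. These shares were near those of all tested genes called lower, 6.46%, 6.37% and 9.09%. At week 12 it was 24 (53.3%) and over all weeks 36 (80.0%), where 13.0% and 17.2% of all tested genes were called lower. The 1 call of higher in PyMT was that of Ldb3 at week 8 (log2 fold change 1.60, adjusted p = 0.0114). The smallest adjusted p over all weeks were those of Asph (log2 fold change -1.09, SE 0.10, adjusted p = 3.78e-09), Dysf (-1.18, SE 0.16, adjusted p = 1.43e-06) and Cryab (-3.02, SE 0.45, adjusted p = 5.32e-06), which many tissues express. Tpm1, Tpm2 and Atp2a2 had the highest mean levels of the list, and Atp2a2, the calcium pump that slow muscle shares with most cells, had a log2 fold change of 0.12 over all weeks (adjusted p = 0.221).

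The 7 myogenic factors examined summed to 67.8 to 141 CPM in PyMT and 120 to 323 CPM in FVB, most of it from Mef2d and Mef2c, which other tissues also make. Myod1, which specifies muscle, was at 4.44, 5.71 and 0 CPM in the FVB libraries of week 6, 0, 0 and 3.57 CPM at week 10 and 9.31, 0 and 0 CPM at week 12, and at 0 in all 3 of week 8. It was at 0 in every PyMT library except week 10 replicate 3, at 0.221 CPM, and thus also in the 3 of week 6 that held 1656 to 14149 CPM of the 35 genes. Those 3 libraries had packets of 0.962 to 3.25 CPM, so that a low level of Myod1 there cannot be told from 0. Myf6, the factor that marks mature fibers, was at 22.4, 14.4 and 0 CPM in the FVB libraries of week 6 and 3.91, 7.40 and 0 CPM in the PyMT libraries of that age. Mef2c and Mef2d were the 2 of the 7 factors that were tested, and Mef2c was called lower in PyMT over all weeks (log2 fold change -2.04, SE 0.34, adjusted p = 1.86e-05).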

How the data were processed

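Directional libraries of ribosome-depleted total RNA were sequenced from 24 mice, 3 a genotype and age. The authors trimmed adapters, used GSNAP for alignment (mm9) and HTSeq for counting, and deposited unnormalized counts per Ensembl gene. The strand and overlap settings of the counting are not given in the sources used here. Groups and replicate numbers came from the sample titles.

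Counts were analysed with edgeR 4.0.16 in R 4.3.3, with DESeq2 1.42.0 and limma 3.58.1 as alternatives, and in Python 3.11.15 with pandas 2.3.3, matplotlib 3.10.9, NumPy 2.4.6 and SciPy 1.17.1. The 14918 genes that reached 1 CPM in 12 or more libraries were tested after TMM scaling, by the quasi-likelihood test with Benjamini-Hochberg adjustment over all tested genes. Each week was fitted on its 6 libraries. The comparison over all weeks used 24 libraries with week as a covariate, the changes between weeks a fit of 8 groups, and the differences among weeks the 12 libraries of a genotype. The SE is the log2 fold change over the square root of F. Symbols, positions and exon lengths came from GENCODE M1 (mm9), and promoters from RefSeq. CPM and RPKM use the total count of the library. Shares have exact Clopper-Pearson 95% intervals, and these and the floor of 3 counts cover counting error only. The fits were tested on simulated data that gave every gene the same spread. Such data do not show how the calls behave for genes as variable between mice as these. Replicate numbers were taken to pair the libraries of a week where the deviations of every pair of the same number from the group means correlated above 0.1. This held at week 10 (0.108 to 0.293 over 3 pairs), from the data and not from the labels.

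Total counts were 6969375 to 13516601 per library. No library was a copy of another of its group, as chi-square per gene between replicates was 19.3 to 243 over 24 pairs. Libraries of different groups were not compared in this way. Fold changes of genes with packets of counts carry less information than their counts imply. The packet size was the peak, at 5 counts or more, of the smoothed number of genes by count.

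The 35 genes and all lists were chosen with earlier results of these data known. By rule all 35 were named, with values by sample for 17 of them and for any called at 2 or more weeks. From other lists the 3 highest genes, those at 0 throughout and the 3 muscle genes with the smallest adjusted p over all weeks were named, and Ldb3, Myod1, Myf6, Myh8, Mybpc1 and Mybpc2 were added after their values were seen. The alternatives were RLE size factors, library size only, scaling without muscle genes, DESeq2, no filter, a replicate block, counts divided by packet size, a fit of all 24 libraries, leaving out libraries with packets, and leaving out each library in turn. Limma voom was added after seeing the data.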

Additional observations from a re-analysis of the deposited data

How the results depend on the processing

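The direction of the tested muscle genes did not depend on the scaling. With RLE size factors, library size only or scaling without muscle genes, all 25 stayed lower in PyMT at weeks 6, 10 and 12 and over all weeks, and all but Mb at week 8. Library size only moved the median of all genes up by 0.24 to 0.32 on the log2 scale, and turned the calls over all genes from 1936 lower and 1156 higher to 1527 and 2054 at week 12. Limma voom, added after seeing the data, put 6 of the 25 above 0 at week 6 and 12 at week 10. The number called did depend on the processing, and the cause was not tested. At week 6 it went from 0 to 1 with DESeq2, with no filter and with counts divided by packet size, to 2 with the replicate block, and to 0 to 22 without 1 library. At week 8 it went from 6 to 12 with DESeq2, 16 with counts divided by packet size, 0 with all 24 libraries in the fit, 2 with limma voom and 0 to 5 without 1 library. At week 10 it went from 0 to 8 with the replicate block and stayed at 0 without any 1 library. At week 12 it went from 21 to 7 with DESeq2, 33 with no filter (35 tested), 4 with the replicate block, 5 with all 24 libraries, 2 with limma voom and 2 to 25 without 1 library. Over all weeks it went from 24 to 1 without the libraries with packets, to 1 with limma voom and to 8 to 25 without 1 library. Within PyMT the differences among weeks went from 0 to 3 with DESeq2, 28 with no filter, 7 with counts divided by packet size and 0 to 20 without 1 library. No member was called in any alternative for a change between weeks or among the FVB weeks. Without 1 library, the log2 fold change of Myh4 at week 12, positive without the FVB library of replicate 1, ran from -9.42 to 0.50, and that of Acta1 at week 10 from -10.23 to 4.61, positive without the FVB library of replicate 3. Whether replicate numbers pair the mice is not given by the labels, and only week 10 met the rule for pairing. Over all weeks 6 of 12 pairs of the same number had deviations that correlated above 0.1 (-0.076 to 0.293), and 16 of 24 libraries correlated best with their own number. Beside week 10, this was so for all 6 libraries of week 8, but for 2 of 6 at weeks 6 and 12. Outside weeks 6, 10 and 12, the block changed no count of these genes by over 1.5 times.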

Other observations

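The FVB library of week 12 replicate 2 held a further myosin. Myh8, the heavy chain known from developing fibers, was at 478 CPM there, against 17.9 CPM for Myh4, 80.5 CPM for Myh1 and 24.7 CPM for Myh2. It was at 62.9 CPM in the FVB library of week 8 replicate 3, where Myh4 was at 15.4 CPM, and at 9.39 CPM in the PyMT library of week 12 replicate 2, where Myh4 was at 0.142 CPM. In the 3 FVB libraries richest in muscle it was at 15.2, 8.00 and 8.96 CPM, beside 20064, 19846 and 11177 CPM of Myh4, and in the other 18 libraries it ran from 0 to 4.80 CPM. Myh3, the embryonic chain, was at most 1.55 CPM in any library. Myh8 shares long stretches with the adult fast chains, so that the division of reads among them is uncertain, and no test of this pattern was run.

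The myosin binding proteins of the thick filament also differed between these libraries. Mybpc2, the fast form, was at 31.6 CPM and Mybpc1, the slow form, which fast fibers also carry, at 51.1 CPM in the FVB library of week 12 replicate 2. In the FVB library of week 6 replicate 1 the order was the reverse, at 1562 CPM of Mybpc2 and 414 CPM of Mybpc1, and likewise in week 10 replicate 3, at 1563 and 383 CPM, and in week 12 replicate 1, at 878 and 494 CPM. In the FVB library of week 8 replicate 3, the next highest in Myh8, Mybpc2 was at 5.58 CPM and Mybpc1 at 4.92 CPM.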
